A study of Mus musculus with 12 samples.

Results

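The levels of 10 mast cell genes were examined in the RNA of whole mouse ovaries. The set comprises the granule proteases Cma1, Mcpt4, Tpsb2, Tpsab1 and Cpa3, the IgE receptor chains Fcer1a and Ms4a2, the receptor Mrgprb1, the histamine-forming enzyme Hdc and the transcription factor Gata2. They were taken by gene symbol, and all 10 were found among the 24255 genes of the deposited table. They were chosen partly on the difference of their FPKM between the genotypes in these same libraries, so that difference is described below for the 10 genes and carries no test. Ovaries came from C57BL/6 mice 6 months of age. Each animal was primed with 5 IU of eCG, a gonadotropin that makes follicles grow, and the ovaries were collected 46 h later. Wild-type ovaries (WT, 7 libraries) were compared with ovaries in which Mtor had been deleted by a Cre recombinase driven by the Gdf9 promoter (CKO, 5 libraries), which is active in oocytes and not in the somatic cells of the ovary. The labels do not say whether WT animals carry a floxed Mtor allele or the transgene. Levels are in FPKM, which corrects fragments for transcript length and for library size. Means are given with the SD over the 7 WT or the 5 CKO libraries. Mtor, the targeted gene, did not pass the test in the whole ovary (log2 fold change 0.08, SE 0.125, adjusted p = 0.709, limma). Nothing in the labels says whether the libraries came from separate animals, so p-values measure the spread between libraries, which may be technical.

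Mast cells are tissue-resident immune cells that store histamine, heparin and large amounts of serine and metalloproteases in secretory granules. They bind IgE through a receptor made of an alpha chain that holds the antibody, a beta chain that amplifies the signal and a gamma chain that many other leukocytes also use. Crosslinking of this receptor, or activation of certain Mrgpr receptors by basic peptides, releases the granules. In mice, mast cells of connective tissues carry chymases of the Cma1 and Mcpt4 type, tryptase and carboxypeptidase, whereas mast cells of mucosal surfaces carry Mcpt1 and Mcpt2. In the ovary, mast cells are found mainly in the stroma and hilum.

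GATA factors, among them Gata2, are known regulators of mast cell genes, so the promoters of the set were read for the GATA words: AGATAA or, with the same core, AGATAG, and for the words that start with T, TGATAA or, with the same core, TGATAG, on both strands. Sequences of the 250 bases before the start site given by RefSeq were taken on GRCm38.p6, the mm10 build to which the reads were mapped. They were found for 8 of the 10 genes, of which Gata2 has 2 promoters. A GATA word occurred in 7 of these 9 promoters, those of 7 of the 8 genes, compared with 26.5% of all 32851 promoters of the same length. The promoters of 6 genes are shown so that those of genes high in CKO can be set against Hdc, which was not. Each is written 5′ to 3′ on the strand of its gene, with GATA words in capitals in either orientation. The promoter of Cma1 lies at chr14:55944676-55944925, Cpa3 at chr3:20242182-20242431, Mcpt4 at chr14:56062311-56062560, Fcer1a at chr1:173227230-173227479, Ms4a2 at chr19:11623720-11623969 and Hdc at chr2:126618679-126618928, all on the minus strand. That of Hdc falls within the gene as GENCODE draws it, since RefSeq's start lies further in.
Cma1: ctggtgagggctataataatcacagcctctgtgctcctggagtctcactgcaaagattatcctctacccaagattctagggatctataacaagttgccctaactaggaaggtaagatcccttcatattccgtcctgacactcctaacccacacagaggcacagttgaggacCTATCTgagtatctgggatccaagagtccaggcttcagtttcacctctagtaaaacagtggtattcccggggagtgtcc
Cpa3: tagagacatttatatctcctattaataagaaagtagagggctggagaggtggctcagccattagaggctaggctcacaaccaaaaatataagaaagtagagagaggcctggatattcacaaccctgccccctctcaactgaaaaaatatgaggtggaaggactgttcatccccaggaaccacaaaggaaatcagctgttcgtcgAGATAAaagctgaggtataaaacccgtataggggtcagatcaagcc
Mcpt4: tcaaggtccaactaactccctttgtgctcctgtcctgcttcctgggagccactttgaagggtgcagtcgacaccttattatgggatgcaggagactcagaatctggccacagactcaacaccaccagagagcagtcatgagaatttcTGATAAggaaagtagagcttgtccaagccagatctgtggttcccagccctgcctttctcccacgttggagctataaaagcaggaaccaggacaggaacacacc
Fcer1a: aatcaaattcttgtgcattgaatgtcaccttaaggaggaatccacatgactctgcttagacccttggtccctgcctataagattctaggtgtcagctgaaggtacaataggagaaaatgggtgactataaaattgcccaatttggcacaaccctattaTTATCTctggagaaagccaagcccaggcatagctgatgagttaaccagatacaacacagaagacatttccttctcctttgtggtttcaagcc
Ms4a2: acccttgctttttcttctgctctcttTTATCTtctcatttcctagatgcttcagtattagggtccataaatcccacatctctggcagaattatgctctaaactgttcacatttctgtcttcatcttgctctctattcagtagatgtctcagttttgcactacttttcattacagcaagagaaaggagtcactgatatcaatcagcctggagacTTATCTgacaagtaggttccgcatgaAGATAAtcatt
Hdc: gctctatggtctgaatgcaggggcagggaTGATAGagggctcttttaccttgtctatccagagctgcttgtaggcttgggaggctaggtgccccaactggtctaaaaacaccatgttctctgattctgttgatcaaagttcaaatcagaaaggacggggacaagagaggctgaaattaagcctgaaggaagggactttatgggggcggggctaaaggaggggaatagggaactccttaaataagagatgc
The GATA word began 79 bases before the start site in Cma1, 46 in Cpa3, 103 in Mcpt4 and 92 in Fcer1a. Ms4a2 held 3 GATA words, beginning 224, 37 and 11 bases before its start, and Mrgprb1 held 2, beginning 134 and 106 bases before. Hdc, whose level did not follow the other genes, also held one, 221 bases before its start, and neither Gata2 promoter held any. The word TATAAA, on either strand, was present in the promoters of Cpa3, Mcpt4 and Fcer1a, compared with 12.4% of all promoters. The words CACGTG and CATGTG, which the mast cell factor Mitf can bind, were found only for Fcer1a, compared with 17.6% of all promoters. These are matches of letters and not binding sites.

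Of the 10 genes, 8 were higher in every CKO library than in any WT library, and Tpsab1 and Hdc were not. Over all genes of the table, 2.38% were higher in CKO without overlap, and among those that passed the filter on low values, which 8 of the 10 did, 4.09%. Of these 8, Cpa3, Mcpt4, Fcer1a and Mrgprb1 reached 1 FPKM in at most 1 WT library and passed the filter through CKO. The choice of the set used this contrast, so nothing is read from the count. All 6 granulosa cell markers fell in CKO, with sums of 3090 to 5560 FPKM in WT and 1240 to 2280 FPKM in CKO, and the part of this shift in the levels of the 10 genes was not tested. In bulk RNA, more cells of a type and more RNA per cell cannot be told apart. Many values in WT rest on very few fragments. By the steps between low values, 1 fragment on 1 kb of transcript was worth 0.298 to 0.65 FPKM, and the libraries differed in depth by up to 2.18-fold. A listed 0 can be a failed estimate, as 10 of 73 ribosomal protein genes are listed at 0 in all 12 libraries, so genes with a listed 0 are given library by library.

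**Figure D1:**
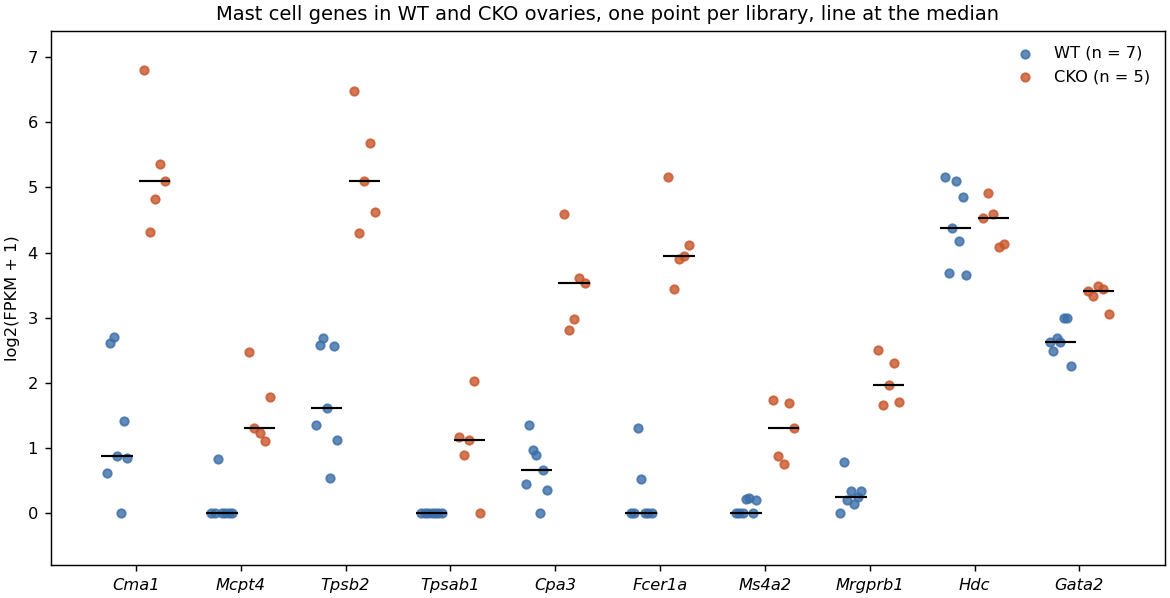
Level of each mast cell gene, as log2(FPKM + 1), in 7 WT and 5 CKO libraries; each point is 1 library and each line the group median. The points of the genotypes are apart for Cma1, Mcpt4, Tpsb2, Cpa3, Fcer1a, Ms4a2, Mrgprb1 and, narrowly, Gata2, and they overlap for Hdc and Tpsab1.

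Cma1 encodes a serine protease of the chymase family in mast cell granules (chromosome 14, 55941451 to 55944675, minus strand). It was at 0.527, 5.08, 5.53, 0.829, 0 and 1.67 FPKM in WT replicates 1, 2, 3, 4, 6 and 7 and at 0.801 FPKM in the WT library whose replicate number the labels do not settle, called the unnumbered WT library. In CKO replicates 1 to 5 it was at 111, 18.9, 27.4, 40.2 and 33.4 FPKM. WT replicates 2 and 3 were the highest of their group, CKO replicate 1 stood above the other CKO libraries, and the lowest CKO value exceeded the highest WT value by 13.3 FPKM. The difference of the mean log2(FPKM + 1) was 3.99, and 3.61 without CKO replicate 1.

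Tpsb2 encodes the main mast cell tryptase of this strain (chromosome 17, 25366305 to 25369098, plus strand). It was at 1.56, 5, 5.45, 2.04, 0.443 and 4.92 FPKM in WT replicates 1, 2, 3, 4, 6 and 7 and 1.18 FPKM in the unnumbered one. CKO replicates 1 to 5 had 88.4, 18.6, 33.4, 50.4 and 23.7 FPKM. Tpsb2 was the only protease of the set above 0 in all WT libraries, with a mean of 2.94 ± 2.1 FPKM (SD, n = 7) against 42.9 ± 28.2 FPKM for CKO (SD, n = 5), a ratio of 14.6. The difference on the log2 scale was 3.46, and 3.15 without CKO replicate 1.

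Cpa3 encodes carboxypeptidase A3, a metalloprotease of the same granules that removes C-terminal residues (chromosome 3, 20215620 to 20242181, minus strand). It was at 0.362, 1.56, 0.954, 0.858, 0 and 0.573 FPKM in WT replicates 1, 2, 3, 4, 6 and 7 and 0.275 FPKM in the unnumbered one. The CKO libraries, in the order of replicates 1 to 5, had 23.1, 6.03, 6.92, 11.2 and 10.6 FPKM. Cma1 and Cpa3 were both listed at 0 in WT replicate 6, the library with the lowest Tpsb2. The highest WT value of Cpa3 corresponds to about 4 fragments and the lowest CKO value to about 18, and the log2 difference was 2.84.

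Mcpt4 encodes another chymase of connective tissue mast cells (chromosome 14, 56059629 to 56062313, minus strand). WT replicate 3 had 0.769 FPKM, about 1 fragment, and the other 6 WT libraries list it at 0. Its CKO values were, for replicates 1 to 5, 4.56, 1.47, 1.33, 1.16 and 2.43 FPKM. It was the lowest of the 4 proteases without overlap, and its CKO values correspond to about 3 to 17 fragments, so their spread is poorly measured.

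Tpsab1 is the neighbouring tryptase gene (chromosome 17, 25343245 to 25345562, minus strand). All 7 WT libraries list it at 0. CKO replicates 1 to 5 had 1.24, 0.861, 1.17, 3.07 and 0 FPKM. RefSeq lists the gene as a transcribed pseudogene in the C57BL/6J assembly, whereas GENCODE M21 lists it as protein-coding. Its groups overlapped because CKO replicate 5 is listed at 0. The longest annotated transcripts of Tpsb2 and Tpsab1 shared no stretch of 50 identical bases, and their local alignment of 401 bases was 81.5% identical.

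Fcer1a encodes the alpha chain that binds IgE (chromosome 1, 173221284 to 173227214, minus strand). WT replicate 3 had 1.47 FPKM and WT replicate 4 had 0.44 FPKM, about 2 fragments or fewer, and the other 5 WT libraries list it at 0. Its CKO values were, for replicates 1 to 5, 34.9, 9.81, 13.9, 14.4 and 16.3 FPKM. CKO replicate 1 was the highest, and the other 4 CKO libraries lay between 9.81 and 16.3 FPKM. The log2 difference was 3.85, and 3.59 without CKO replicate 1.

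Ms4a2 encodes the beta chain of the same receptor (chromosome 19, 11615523 to 11623719, minus strand). It was at 0.16, 0.173 and 0.153 FPKM in WT replicates 4 and 6 and the unnumbered WT library, about 1 fragment each at most, and listed at 0 in the other 4. The CKO libraries, in the order of replicates 1 to 5, had 2.33, 0.839, 0.679, 2.22 and 1.48 FPKM. No WT library reached the lowest CKO library. In the CKO libraries the ratio of Ms4a2 to Fcer1a, both per length, lay between 0.0487 and 0.154.

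Mrgprb1 encodes a receptor of the Mrgpr family of G protein-coupled receptors (chromosome 7, 48444113 to 48456342, minus strand). It was at 0, 0.726, 0.149, 0.268, 0.0962 and 0.178 FPKM in WT replicates 1, 2, 3, 4, 6 and 7 and 0.256 FPKM in the unnumbered one. CKO replicates 1 to 5 had 4.65, 2.14, 2.89, 3.93 and 2.25 FPKM. The gene is low in FPKM but its annotated transcript is long, so the CKO values correspond to about 18 to 65 fragments, compared with about 6 at most in WT. Its neighbour in the family Mrgprb2, which encodes the receptor for basic secretagogues on connective tissue mast cells and is not in the set, was at 0.259 FPKM in WT replicate 2 and listed at 0 in the other 6 WT libraries. In CKO replicates 1 to 5 Mrgprb2 was at 3.8, 1.6, 2.16, 0.48 and 1.26 FPKM, above every WT library, and it was too low in too many libraries to be tested.

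Hdc encodes histidine decarboxylase, the enzyme that makes histamine (chromosome 2, 126593667 to 126619299, minus strand). It was at 34.8, 11.9, 19.7, 33.3, 17 and 28 FPKM in WT replicates 1, 2, 3, 4, 6 and 7 and 11.6 FPKM in the unnumbered one. In CKO replicates 1 to 5 it was at 22.2, 29.2, 23.1, 15.9 and 16.5 FPKM. All CKO values lay inside the WT range, and the means were 22.3 ± 9.74 FPKM (WT) and 21.4 ± 5.44 FPKM (CKO). Hdc was the highest gene of the set in every WT library, including WT replicate 6, where Cma1 and Cpa3 are listed at 0.

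Gata2 encodes a transcription factor of mast cell and other blood lineages that endothelial and other cells also use (chromosome 6, 88193891 to 88207032, plus strand). It was at 5.14, 4.6, 5.47, 5.14, 6.94 and 7 FPKM in WT replicates 1, 2, 3, 4, 6 and 7 and 3.80 FPKM in the unnumbered one. The CKO libraries, in the order of replicates 1 to 5, had 9.58, 9.05, 10.2, 9.85 and 7.28 FPKM. The groups were separated by only 0.282 FPKM, between CKO replicate 5 and WT replicate 7. The means were 5.44 ± 1.17 FPKM (WT) and 9.2 ± 1.15 FPKM (CKO), a ratio of 1.69, compared with 14.6 for Tpsb2. Its spread among the CKO libraries was small, and it was not highest in CKO replicate 1.

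The gene levels, which FPKM gives per length, kept similar proportions among the CKO libraries. The ratio of Tpsb2 to Cma1 lay between 0.711 and 1.25 in CKO, that of Cpa3 to Cma1 between 0.209 and 0.319, and that of Fcer1a to Cma1 between 0.316 and 0.519. These ratios spanned 1.76-fold, 1.53-fold and 1.64-fold, while Cma1 itself went from 18.9 to 111 FPKM. The ratio of Mcpt4 to Cma1 ranged from 0.0289 to 0.0778 and that of Mrgprb1 to Cma1 from 0.042 to 0.114. In the 6 WT libraries with Cma1 above 0, Tpsb2 to Cma1 lay between 0.985 and 2.95, on values of few fragments. In contrast, Hdc to Cma1 lay between 0.201 and 1.55 in CKO and between 2.34 and 66.1 in WT, and Gata2 to Cma1 between 0.0867 and 0.48 in CKO and between 0.906 and 9.77 in WT.

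**Figure D2:**
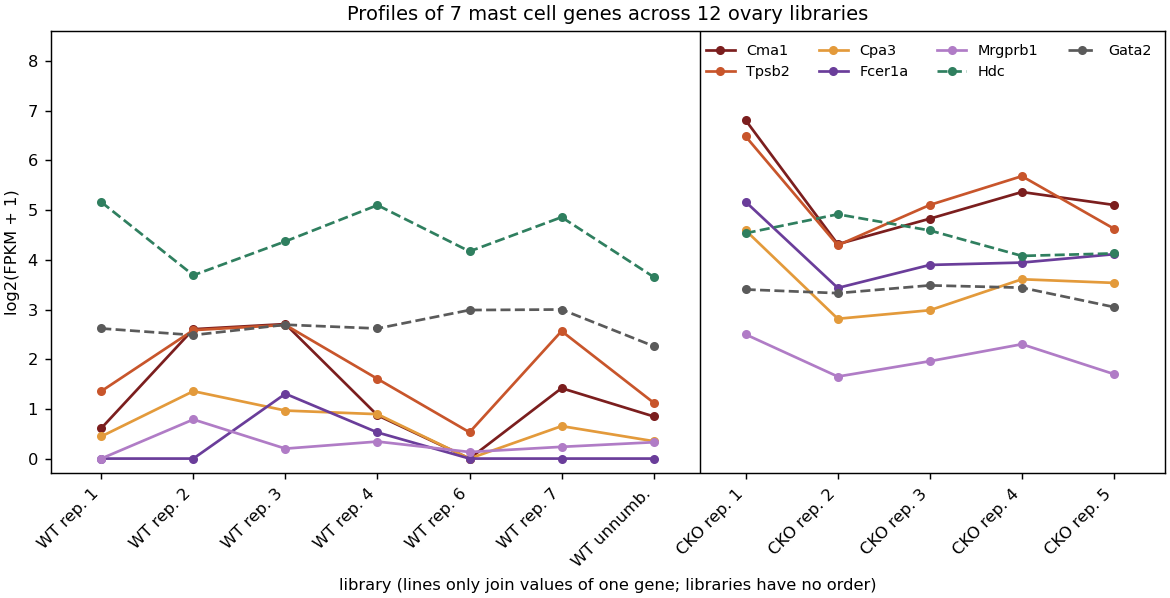
log2(FPKM + 1) of 7 mast cell genes in each of 12 libraries; lines only join the values of 1 gene, and the vertical line parts WT from CKO. Cma1, Tpsb2 and Cpa3 follow similar courses within both groups, with Cma1 at 111 FPKM in CKO replicate 1 and 18.9 FPKM in CKO replicate 2, while the dashed lines of Hdc and Gata2 do not follow them.

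Which of these genes vary together among libraries of the same genotype was asked after removing each group's mean from log2(FPKM + 1), which leaves out the contrast that chose the genes. For the 9 genes above 0 in at least 5 libraries, 36 pairs were compared over 12 libraries. Permutation tests (two-sided, 100000 resamples within groups) gave p-values that were adjusted over the 36 pairs. Of the pairs, 3 passed an adjusted p of 0.05, both with Pearson's r and with Spearman's rho, and they join Cma1, Tpsb2 and Cpa3. Cma1 and Tpsb2 had r = 0.914 (permutation p = 0.00011, adjusted p = 0.00378) and rho = 0.909 (permutation p = 0.00048, adjusted p = 0.0101). Cma1 and Cpa3 had r = 0.893 (permutation p = 0.00021, adjusted p = 0.00378) and rho = 0.902 (permutation p = 0.00056, adjusted p = 0.0101). Cpa3 and Tpsb2 had r = 0.836 (permutation p = 0.00135, adjusted p = 0.0162) and rho = 0.832 (permutation p = 0.00257, adjusted p = 0.0308). Without the 2 libraries farthest from the median of the first gene, r was 0.862, 0.895 and 0.745 for these pairs, and without CKO replicate 1 it was 0.882, 0.85 and 0.774. Within the 7 WT libraries alone, r was 0.909, 0.867 and 0.839, with exact permutation p = 0.00179, 0.0113 and 0.0192, and rho was 0.964, 0.893 and 0.929, with exact permutation p = 0.00278, 0.0123 and 0.00675. None of these WT values passed when adjusted over the 36 pairs (adjusted p = 0.0643, 0.204 and 0.231 for r and 0.1, 0.148 and 0.121 for rho, exact permutation tests). The 5 CKO libraries are too few for a correlation of their own.

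No other pair passed the adjusted threshold, although 11 pairs in all had an unadjusted permutation p of r under 0.05. Mcpt4 and Fcer1a had r = 0.889 and rho = 0.526 (permutation p = 0.00941 and 0.132, adjusted p = 0.0678 and 0.397). That relation rests on WT replicate 3 and CKO replicate 1, since without them r was 0.288. All 21 pairs that contain neither Hdc nor Gata2 had r above 0, with a median of 0.65 and a lowest value of 0.22, but this rests on CKO replicate 1. Without it the median was 0.44 and 4 of the 21 pairs were below 0, the lowest being Mcpt4 with Mrgprb1 at -0.343. Within WT, 8 of the 21 were below 0, among them all 6 pairs with Ms4a2, whose WT values are at most about 1 fragment. For genes near 0 in WT, the deviations come almost only from the 5 CKO libraries. CKO replicate 1 was the highest CKO library for 7 of the 10 genes and CKO replicate 2 the lowest for 5. CKO replicate 1 was also the deepest library by the steps between low values, at 1.64 times the depth of WT replicate 1, and its part in these correlations beyond the values without it was not tested. The 15 pairs with Hdc or Gata2 had a median r of -0.05. The lowest r of all pairs were those of Hdc with Mrgprb1 (r = -0.427), Ms4a2 (r = -0.286) and Cma1 (r = -0.277), with rho of -0.378, -0.331 and -0.28. The permutation p of r for these were 0.141, 0.223 and 0.415 and those of rho 0.215, 0.246 and 0.403, and none passed (adjusted p = 0.362, 0.473 and 0.664 for r and 0.539, 0.554 and 0.695 for rho). As a background, Cma1 had a median r of -0.006 with the 13167 other genes tested, and 0.820% of them reached r = 0.7.

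**Figure D3:**
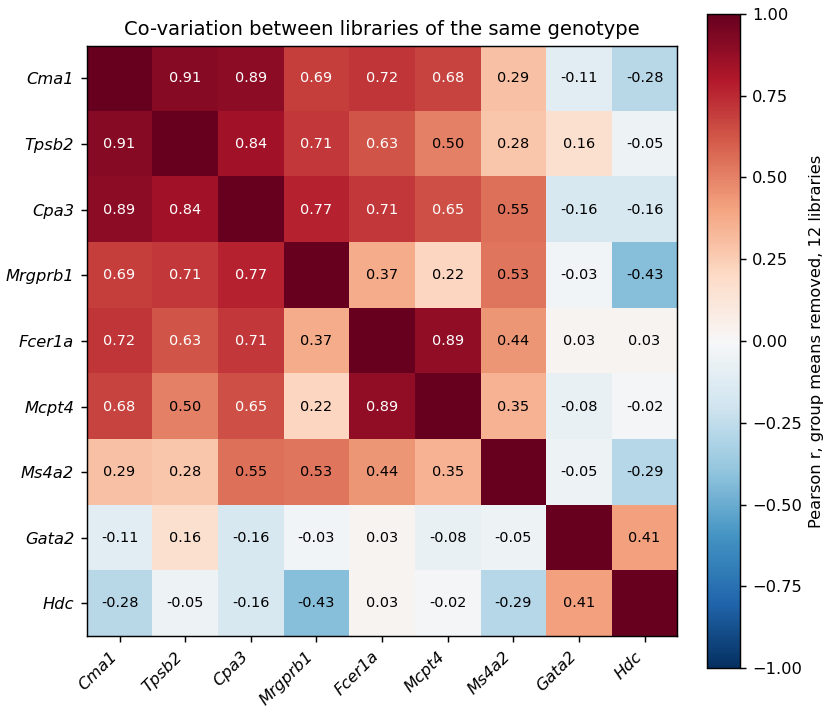
Pearson r between 9 mast cell genes over 12 libraries, computed on log2(FPKM + 1) after removing the mean of each genotype; red is positive and blue negative. Cma1, Tpsb2 and Cpa3 form a block with r of 0.836 to 0.914, and the rows of Gata2 and Hdc hold no r above 0.41, the value they have with each other.

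The genes whose variation between libraries was most like the mean of the 8 genes of the set that passed the filter were not among the mast cell genes listed here. Of 13160 genes ranked by r over 12 libraries with group means removed, the first 10 were Macrod2 (r = 0.9), Ints10 (r = 0.88), H2afz (r = 0.87), Rprm and Copg1 (r = 0.86 each), Ncapd3 (r = 0.85), Rars (r = 0.84), Csrp2 (r = 0.83), Adat3 and Cd79a (r = 0.82 each). Among mast cell pathway genes, the closest were Srgn at rank 143 (r = 0.68) and Il1rl1 at rank 185 (r = 0.67). The mean of the 8 genes includes Hdc and Gata2, which did not follow the others, and leaves out Ms4a2 and Tpsab1. A ranking without Hdc and Gata2 was not made. These ranks are a description, as 12 libraries leave room for high r among so many genes.

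Cma1 and Mcpt4 stand in the same cluster of chymase and granzyme genes on chromosome 14, 115 kb apart, and Tpsb2 and Tpsab1 lie 20.7 kb apart on chromosome 17. Within 350 kb of the chymase pair, 42 other genes are in the table. None of them was higher in every CKO library than in every WT library, and 9 are listed at 0 in all 12 libraries. Between Cma1 and Mcpt4 lie Mcpt1 and Mcpt2, the proteases of mucosal mast cells, which were listed at 0 in all WT libraries. Mcpt1 was above 0 only in CKO replicate 4, at 1.11 FPKM, and Mcpt2 only in CKO replicate 5, at 0.624 FPKM. Mcpt8, the basophil protease beyond Mcpt4, and Ctsg, the cathepsin G gene, were listed at 0 in all 12 libraries. Gzmb, a granzyme of cytotoxic cells at the far end, was at 0 to 2.37 FPKM in WT and 1.27 to 4.30 FPKM in CKO and did not pass the test (adjusted p = 0.121, limma). Within 60 kb of the tryptase pair, Tpsg1, a membrane-anchored tryptase, was listed at 0 in all WT libraries and in CKO replicate 2, and reached 1.63 FPKM in CKO.

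**Figure D4:**
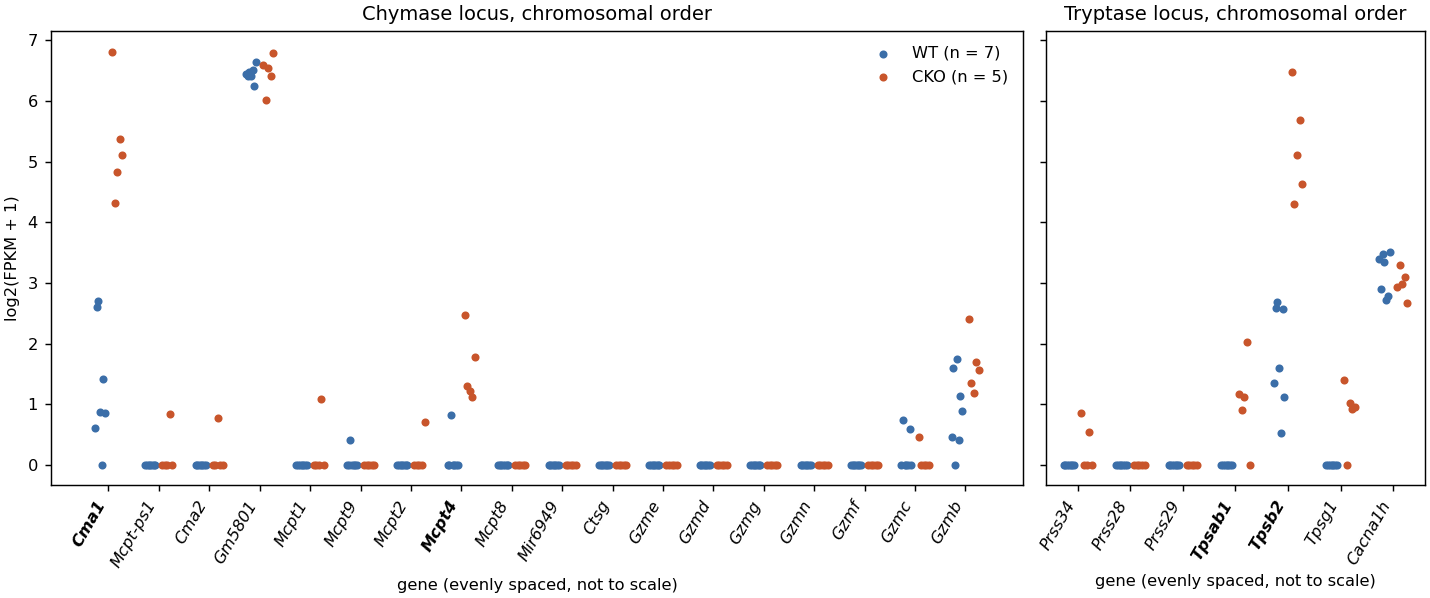
log2(FPKM + 1) of the genes in chromosomal order from Cma1 to Gzmb (left) and around Tpsab1 and Tpsb2 (right), with 1 point per library, 7 WT and 5 CKO; genes are evenly spaced and names of the mast cell gene set are in bold. Cma1 and Tpsb2 are the genes whose points are widely apart between genotypes, and most neighbouring proteases lie at 0 in all or nearly all libraries.

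Other genes of mast cell function were taken from 7 lists written from textbook knowledge, with 83 genes in all, of which 56 could be tested. Of these 56, 24 rose and 3 fell in CKO (limma, p-values adjusted by Benjamini-Hochberg over 13168 genes, threshold 0.05). Of all genes tested, 8.70% rose and 7.59% fell, 16.3% together. Of the 56, 7 reached 1 FPKM in at most 2 WT libraries and so entered the test mainly through CKO, and 4 of these are among the 24. With a filter on the mean over all libraries instead, at least 5 FPKM, 16 of 34 rose and 3 fell. Over all genes that passed it, 832 of 9539 rose and 681 fell. A gene can pass this filter through CKO as well, as Csf2rb did with means of 3.56 FPKM (WT) and 12.3 FPKM (CKO). The highest sums of erythroid and macrophage markers were those of CKO replicates 1 and 5, and in the fit that omits both, 10 of the 56 were called, and without CKO replicate 1 or WT replicate 4 it was 16 each. Without WT replicate 1 or CKO replicate 5 it was 17 each. Of the 20 genes named below that passed, 11 lost the call without CKO replicates 1 and 5, with adjusted p of 0.0555 to 0.279 (limma). These were Alox5ap, Cd200r1, Cd63, Fcer1g, Inpp5d, Lat, Lat2, Mitf, Ptgs1, Rab27a and Slc18a2. Without CKO replicates 2 and 3, the calls of Cd200r1, Mitf, Ptgs1, Rab27a and Slc18a2 were lost, with adjusted p of 0.0571 to 0.119 (limma). Macrophages express many of these genes as well. Of 8 macrophage markers, 6 rose, and their summed level was 344 to 1010 FPKM in WT and 1180 to 3690 FPKM in CKO. The part of macrophages in the differences of the shared genes was not tested.

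Growth and lineage factors of mast cells rose in part. Of 13 genes, all tested, 6 rose and 0 fell, with a median log2 fold change of 0.43 against -0.01 over all genes tested. Il33, which encodes the alarmin that activates mast cells, was at 4.91 ± 2.82 FPKM (WT) and 24.2 ± 4.92 FPKM (CKO), without overlap. The change was 2.2 on the log2 scale, SE 0.27 (adjusted p = 0.000281, limma), and the call held without each library in turn. Il1rl1, the receptor for Il33 on mast cells and some lymphocytes, was at 0.506 ± 0.330 FPKM and 2.79 ± 1.22 FPKM (adjusted p = 0.00178, limma). It reached 1 FPKM in 1 WT and 5 CKO libraries, so it passed the filter through CKO, and the call was also made with no filter on low values. Csf2rb, the beta chain shared by the receptors for Il3, Il5 and GM-CSF, was at 3.56 ± 1.06 FPKM and 12.3 ± 4.25 FPKM (adjusted p = 0.000708, limma). Mitf, a transcription factor that mast cells require, was at 4.08 ± 0.883 FPKM and 6.02 ± 0.514 FPKM (adjusted p = 0.033, limma), a call lost in 7 of 12 fits that leave out 1 library.

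Kit, the receptor tyrosine kinase on which mast cells depend, did not pass the test. It was at 6.42 ± 2.71 FPKM (WT) and 7.58 ± 1.95 FPKM (CKO), with adjusted p = 0.5 (limma). Kit is also a gene of oocytes. Of 5 oocyte markers tested, 3 fell in CKO, Gdf9 and Bmp15 among them. Nlrp5 did not, at 9.25 FPKM (WT) and 9.5 FPKM (CKO), with adjusted p = 0.976 (limma). The part of oocytes in the level of Kit was not tested. Kitl, which encodes its ligand and is made by granulosa and other cells, was at 54.3 ± 12.8 FPKM and 72.4 ± 7.57 FPKM. Its adjusted p was 0.0608 (limma) with all libraries, and it passed when WT replicate 6 was dropped.

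IgE receptor signalling genes rose in part. Of 16 genes, all tested, 7 rose and Gab2, an adapter, fell, with a median log2 fold change of 0.61. Lat, the adapter of T cells and mast cells, was listed at 0 in 3 WT libraries, reached 1.05 FPKM in WT and lay between 1.47 and 2.65 FPKM in CKO (adjusted p = 0.00773, limma). It too passed the filter mainly through CKO, with 2 WT and 5 CKO libraries at 1 FPKM or more, and it was also called with no such filter. Lat2, an adapter of mast cells, B cells and myeloid cells, was at 3.54 ± 1.79 FPKM (WT) and 9.99 ± 3.51 FPKM (CKO), and Inpp5d, the inhibitory phosphatase SHIP1, at 2.83 ± 0.804 FPKM and 5.63 ± 1.61 FPKM (adjusted p = 0.00897 and 0.0131, limma). Without CKO replicates 1 and 5 their adjusted p were 0.0843 and 0.106 (limma). Fcer1g, the gamma chain shared with macrophages and other leukocytes, was at 33.6, 23.4, 38.0, 28.5, 135 and 35.5 FPKM in WT replicates 1, 2, 3, 4, 6 and 7, 27.1 FPKM in the unnumbered one, and 186, 60.5, 63.5, 68.8 and 123 FPKM in CKO replicates 1 to 5. WT replicate 6, where Fcer1a is listed at 0, lay above 4 of the 5 CKO libraries. Fcer1g passed narrowly (adjusted p = 0.0427, limma), and the call was lost in 9 of 12 fits that leave out 1 library. The ratio of Fcer1a to Fcer1g was 0.132 to 0.219 in CKO and at most 0.0387 in WT.

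Genes of granule storage and amine handling moved in both directions. Of 9 genes, 5 were tested, 2 rose and 1 fell, with a median log2 fold change of 0.33. Srgn, the serglycin core protein that carries heparin in mast cells and other chains in other leukocytes, was at 45.7 ± 5.27 FPKM in WT and rose in CKO, where the libraries lay at 256, 87.0, 106, 129 and 120 FPKM (adjusted p = 0.000442, limma). Maob, an amine-degrading enzyme, rose from 4 ± 1.64 FPKM to 9.43 ± 2.59 FPKM (adjusted p = 0.00479, limma). Slc18a2, the vesicular transporter that loads histamine and other monoamines, fell from 31.8 ± 16.1 FPKM to 12.1 ± 4.8 FPKM (adjusted p = 0.0205, limma). The call for Slc18a2 held without each library in turn but not without CKO replicates 2 and 3 (adjusted p = 0.069, limma) or 1 and 5 (adjusted p = 0.0601, limma).

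Of 10 other granule proteases, 2 could be tested and Ctsc, the peptidase that activates granule serine proteases, rose from 41.4 ± 8.62 FPKM (WT) to 80.9 ± 24.3 FPKM (CKO), with adjusted p = 0.00295 (limma). Of 11 genes of lipid mediators, 6 were tested, 3 rose and 0 fell, with a median log2 fold change of 0.55. Hpgds, the prostaglandin D synthase of mast cells and other haematopoietic cells, rose from 3.83 ± 1.48 FPKM to 10.3 ± 3.12 FPKM (adjusted p = 0.00229, limma). Alox5ap, the partner protein of 5-lipoxygenase, rose from 15.6 ± 3.77 FPKM to 28.5 ± 7.72 FPKM (adjusted p = 0.00822, limma), which became 0.0621 (limma) when CKO replicates 1 and 5 were dropped. Ptgs1, a cyclooxygenase, also passed, a call lost in 9 of 12 fits that leave out 1 library.

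Genes of granule exocytosis showed no common direction. Of 12 genes, 10 were tested, 1 rose and 1 fell, with a median log2 fold change of 0.02. Cd63, a granule membrane tetraspanin that many lysosomes carry, rose from 23.8 ± 5.61 FPKM (WT) to 41.0 ± 9.06 FPKM (CKO), with adjusted p = 0.00809 (limma), and 0.0793 without CKO replicates 1 and 5. Rab27a, a GTPase of secretory granules, fell from 104 ± 40.8 FPKM to 41.1 ± 23.0 FPKM (adjusted p = 0.0373, limma), a call lost in 9 of 12 fits that leave out 1 library. Stx3, a membrane fusion protein, had an adjusted p of 0.0702 (limma) and passed only when WT replicate 2 or CKO replicate 4 was dropped. Of 12 Mrgpr and surface receptor genes, 4 were tested, none of them an Mrgpr gene, and all 4 rose, with a median log2 fold change of 1.48. Fcgr2b and Fcgr3, IgG receptors that macrophages also carry, rose from 18.2 ± 6.30 to 56.0 ± 11.6 FPKM and from 24.4 ± 8.42 to 81.1 ± 29.4 FPKM (adjusted p = 0.000300 and 0.000708, limma). Cd200r1, an inhibitory receptor of myeloid cells, passed as well, a call lost in 8 of 12 fits that leave out 1 library.

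**Figure D5:**
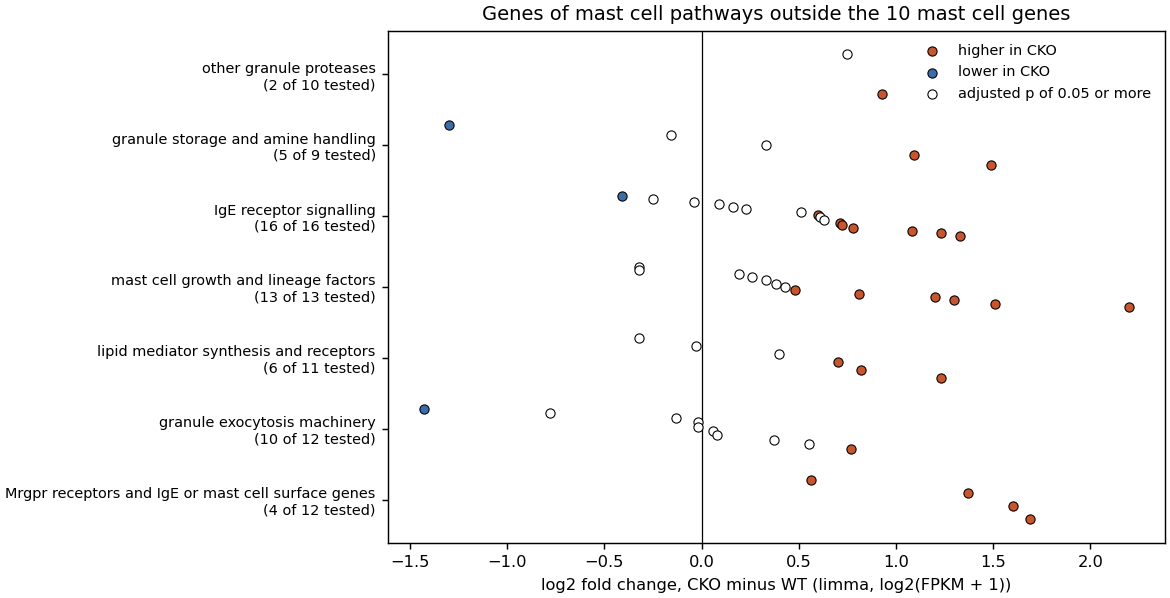
log2 fold change (CKO minus WT, limma on log2(FPKM + 1)) of each gene tested in 7 lists of mast cell pathways; filled points passed an adjusted p of 0.05 and open points did not. Growth and lineage factors and IgE signalling hold 6 and 7 genes that rose, while granule exocytosis genes lie on both sides of 0.

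Basophils and eosinophils share some genes with mast cells, and their markers were low. The 5 basophil markers summed to 1.64 to 2.98 FPKM in WT and 1.3 to 3.24 FPKM in CKO, with Mcpt8 listed at 0 throughout, and 0 of the 1 tested passed. Mean levels in WT and CKO were 0 and 0.253 FPKM for Prss34 and 0.188 and 0.538 FPKM for Cd200r3. For Il3ra they were 1.35 and 1.32 FPKM and for Itga2 0.688 and 0.118 FPKM. The 8 eosinophil markers summed to 3.27 to 8.28 FPKM in WT and 5.83 to 9.63 FPKM in CKO, with Epx listed at 0 throughout and 0 of the 1 tested called. The neutrophil markers found in the table summed to 1.64 to 21.7 FPKM in WT and 6.27 to 43.1 FPKM in CKO, with Mpo listed at 0 throughout and 0 of 2 called. Lymphocyte markers summed to 3.26 to 6.93 FPKM in WT and 12.5 to 23.2 FPKM in CKO, and 2 of 4 tested rose. None of the tested platelet (3) or erythroid (4) markers was called, with erythroid sums of 19.4 to 248 FPKM in WT and 13 to 316 FPKM in CKO and platelet sums of 3.95 to 13.6 FPKM and 3.51 to 18.2 FPKM. Of 4 mesothelium markers tested, 1 rose, with sums of 47.7 to 113 FPKM in WT and 61.4 to 231 FPKM in CKO. Of 5 oocyte markers tested, 3 fell, with sums of 45.9 to 160 FPKM in WT and 9.11 to 48.2 FPKM in CKO. Of 5 fat pad markers, Cfd and Cidec are listed at 0 in all libraries and the sums were 3.8 to 14.4 FPKM in WT and 1.08 to 4.22 FPKM in CKO, and the 1 tested fell. Oviduct markers, a sign of adhering tissue, summed to 0.173 to 2.03 FPKM in WT and up to 258 FPKM in CKO, and CKO replicates 2 and 3 held the high values, while 0 of the 1 tested was called. Without these 2 libraries the log2 difference was 4.46 for Cma1 and 4.15 for Fcer1a, compared with 3.99 and 3.85 with all libraries. These 2 libraries held the lowest CKO values of both genes, so a rise follows from leaving them out. Without CKO replicates 1 and 5 the log2 difference was 3.54 for Cma1 and 3.50 for Fcer1a, and replicate 1 held their highest CKO value. The part of adhering tissue in the levels of the mast cell genes was not tested.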

How the data were processed

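RNA sequencing of whole ovaries gave 12 libraries, 7 WT and 5 CKO by their titles. Per the labels and the series' design text, paired-end reads were trimmed by the authors, mapped on mm10 by TopHat2 2.0.13 and turned into normalized FPKM by Cufflinks 2.2.1, and Cuffdiff compared the groups at default settings. The deposited table also holds the authors' log2 fold changes, p-values and q-values, which were not used here. What annotation was counted, and whether by strand, is not given in the sources used here. A WT column carries a name that fits the labels of more than 1 sample of that group and has no replicate number here. Total counts are unknown. Relative depth came from low genes, whose values were whole multiples of 1 step, within 0.1, in 83.3% of 1579 genes.

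The 10 genes, the lists and the tests were chosen with earlier results of these data known. Values were analysed as log2(FPKM + 1) in R 4.3.3. Genes with at least 1 FPKM in at least 5 libraries (13168, of which 8 of the 10) were tested with limma 3.58.1 (trended empirical Bayes, two-sided, Benjamini-Hochberg, threshold 0.05), checked on simulated data. On this scale, the pseudocount shrinks fold changes of genes with low FPKM. Positions are from GENCODE M21 (mm10). Genes named outside the set are, for each pathway list, the 3 with the smallest p, plus Kit, Kitl, Fcer1g, Mrgprb2, Mcpt1, Mcpt2, Mcpt8, Il33 and Mitf, and the 10 most alike. Mtor, Gab2, Ctsg, Tpsg1, Mpo, Gdf9, Bmp15, Nlrp5, Epx, Cfd, Cidec, Prss34, Cd200r3, Il3ra and Itga2 were named after their values were seen. Alternatives covered the pseudocount, filter, scaling, sample weights, a replicate block and leaving out libraries, and those without 2 CKO libraries were chosen after seeing the data.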

Additional observations from a re-analysis of the deposited data

Results flagged for a closer look

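A library was marked where it stood apart from the others of its group on the log2(FPKM + 1) scale, by the gap to its nearest neighbour relative to the group's range. Of 71 groups of values examined, 8 held such a library, and chance marks about 1 group in 20. That rate does not apply to 4 of the 8, those of Mcpt4, Mrgprb2, Mcpt1 and Mcpt2, where all other libraries are listed at 0 and any single value above 0 is marked. Nor can it be relied on for Fcer1a, listed at 0 in 5 of the 7 WT libraries. In WT, replicate 3 stood high for Mcpt4, at 0.769 FPKM with the other 6 listed at 0, and for Fcer1a, at 1.47 FPKM with the others at 0 to 0.44 FPKM. WT replicate 2 stood high for Mrgprb2, at 0.259 FPKM with the others listed at 0. WT replicate 6 stood high for Fcer1g, at 135 FPKM, with the others between 23.4 and 38.0 FPKM. The unnumbered WT library stood low for Rab27a, at 32.2 FPKM, with the others between 87.0 and 163 FPKM. In CKO, replicate 3 stood low for Slc18a2, at 4.15 FPKM, with the others between 11.1 and 15.9 FPKM. Replicate 4 stood high for Mcpt1, at 1.11 FPKM, and replicate 5 for Mcpt2, at 0.624 FPKM, with the others listed at 0.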

How the results depend on the processing

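Of the 10 mast cell genes, 8 had no overlap between genotypes, and it was 8 as well with another scaling. Without each library in turn it was 8 or 9, but leaving out a library cannot lower this count, so nothing is read from it. Pseudocounts of 0.1 and 5 moved the log2 difference of Cma1 from 3.99 to 5.04 and 2.68 and that of Fcer1a from 3.85 to 6.43 and 2.04. The number of pairs with r of at least 0.7 was 8. It was 4 with a pseudocount of 0.1, 14 with a pseudocount of 5, 5 within WT only, 4 with Spearman's rho, 5 without CKO replicates 2 and 3, and also 5 when CKO replicates 1 and 5 were left out. Leaving out 1 library gave 4 to 11, with 4 without CKO replicate 1 and 5 without CKO replicate 2. Calls over all genes numbered 2144, 1665 to 2306 without 1 library, and 1375 without CKO replicates 1 and 5. Calls among pathway genes numbered 27, 16 to 27 without 1 library, and 10 without CKO replicates 1 and 5. Replicate numbers 1 to 4 occur in both genotypes. Deviations from the group means correlated at -0.071 to 0.09 between same-numbered libraries. These values show no sign of pairing but cannot settle whether the numbers pair the samples. With the replicate block, on 8 libraries, 1378 genes and 19 pathway genes were called, and without the block 1608 and 24 on those libraries. Of the 20 named genes called, Cd200r1, Cd63, Inpp5d, Lat2, Mitf and Ptgs1 were not called with the block. Of these, Mitf was not called on the same libraries without the block either (adjusted p = 0.127, limma). Kitl passed on these 8 libraries with the block (adjusted p = 0.045, limma) and without it (0.0393). In all 4 same-numbered comparisons CKO was above WT for 9 of the 10 mast cell genes. This had to be so for the 8 without overlap. It also had to be so for Tpsab1, listed at 0 in all WT libraries and above 0 in CKO replicates 1 to 4. Nothing is read from it. Of 522 refits of 24 named genes outside the set, 446 kept their status, called or not called, and the direction. A call was lost in 71 and gained in 5, and 0 changed sign. The cause of these changes was not tested. Depth limits Mcpt4, Ms4a2 and Tpsab1 most.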
